A study of Mus musculus with 6 samples.

Results

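The mitochondrial genome transcripts examined here are the RNAs made from the small circular chromosome inside mitochondria. They were chosen by name, as every row of the deposited expression table whose Ensembl ID belongs to a mouse symbol starting with mt-. This gave 16 of the 33184 rows: all 13 protein-coding genes, both ribosomal RNA genes and 1 transfer RNA gene, mt-Tp. The gene name table holds 37 such symbols, and the other 21, all transfer RNA genes, were not analysed here. All 16 passed the filter on low values, a mean of at least 0.5 FPKM (reads relative to gene length and library size).

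Wound tissues came from db/db BLKS mice, a diabetic line with a mutated leptin receptor, and every library of both groups carried this genotype (written dbdb). Epidermis and dermis were cut out in a circle of 6 mm. Control siRNA (NC-siRNA, 3 libraries, named NC 1 to 3) or siRNA against SFRP2 (SFRP2-siRNA, 3 libraries) was given by peri-wound injection at dpi1 (day 1 after injury), and the tissue was frozen at dpi4. The titles give day 3, with no statement of where that count starts, and the ages of the mice are not given in the sources used here. The study lists 3 SFRP2 siRNAs, numbered as the treated libraries are. Whether each library received a different one is not stated, nor whether each library was a separate animal. The p-values thus rest on the spread between these libraries only. In the limma test used below, that spread is partly shared over genes of similar level.

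The FPKM values implied 42.9 to 47.1 M reads (M, mega) per library. The library labelled SFRP2-siRNA 1 stood apart: its correlation with the other two of its label was 0.889 and 0.893, against 0.964 to 0.976 for the other pairs of the same label, and its summed hair follicle markers were 27.9 FPKM, against 2872 to 6058 elsewhere. Sfrp2 itself ran against the labels, with 11.6, 40.6 and 14.1 FPKM in NC 1, 2 and 3 and 50.6, 54.6 and 55.2 in the libraries labelled SFRP2-siRNA 1, 2 and 3. Each direction below is therefore one between labels.

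The mitochondrial genome encodes core subunits of respiratory complexes I, III and IV and of ATP synthase (complex V), plus the ribosomal and transfer RNAs needed to translate them. Both strands are copied by the polymerase POLRMT, with the help of TFAM, into long precursors that span many genes. Cutting at the transfer RNAs that lie between most genes then releases the single RNAs, most of which receive short poly(A) tails. Tissues rich in mitochondria, such as brown fat and heart, hold large amounts of these transcripts. Fragments of this genome have also been copied into nuclear chromosomes during evolution, where they are annotated as pseudogenes.

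These nuclear copies matter for how the reads could be assigned, so a few sequences are shown first, from GENCODE vM21 transcripts (GRCm38). In that annotation a stretch of 4663 bases on the minus strand, chr1:24611535-24616197, holds 7 pseudogenes in the same order as positions 6390 to 11042 of the mitochondrial genome, and 5 of the 6 spacings between them are identical to the base. The first pair below is the start of mt-Nd3 (chrM:9459-9518, plus strand) and of its copy Gm28438 (chr1:24613060-24613119, minus strand), which differ at the 1 capital base. The second pair is a stretch of mt-Co2 (chrM:7313-7372, plus strand) and its copy Gm28661 (chr1:24615206-24615265, minus strand), which are identical. The third pair is a stretch of mt-Cytb (chrM:14687-14746, plus strand) and its nearest nuclear copy Gm11410 (chr4:80004531-80004590, plus strand), which differ at the 4 capital bases.
mt-Nd3: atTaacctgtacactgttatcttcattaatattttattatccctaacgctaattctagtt
Gm28438: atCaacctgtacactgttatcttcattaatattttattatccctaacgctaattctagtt
mt-Co2: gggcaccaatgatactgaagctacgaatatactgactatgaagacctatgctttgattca
Gm28661: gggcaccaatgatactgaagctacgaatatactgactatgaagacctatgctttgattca
mt-Cytb: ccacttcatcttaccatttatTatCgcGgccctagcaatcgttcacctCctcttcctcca
Gm11410: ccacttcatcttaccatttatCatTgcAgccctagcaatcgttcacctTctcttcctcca

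Genes of the mitochondrial genome also overlap each other. The end of mt-Atp8 (chrM:7910-7969, plus strand) is shown with the 43 bases it shares with the start of mt-Atp6 in capitals, and mt-Tp (chrM:15356-15422, minus strand), the 1 transfer RNA gene measured, is shown whole. mt-Nd4l and mt-Nd4 share 7 bases, and mt-Nd5 and mt-Nd6, which lie on opposite strands, share 14. The first 2 pairs each lie on 1 strand, so reads from their shared bases could belong to either gene. Whether the authors' counting used strand is not given in the sources used here, so the same may hold for mt-Nd5 and mt-Nd6.
mt-Atp8 end: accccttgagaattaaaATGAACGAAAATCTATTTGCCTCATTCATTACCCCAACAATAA
mt-Tp: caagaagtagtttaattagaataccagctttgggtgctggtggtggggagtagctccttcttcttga

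The 16 transcripts made up a large and variable part of the measured RNA. Of all FPKM summed, they held 35.8%, 22.2% and 17.4% in NC 1, 2 and 3 and 16.6%, 11.8% and 13.8% in the libraries labelled SFRP2-siRNA 1, 2 and 3. Every NC library was above every SFRP2-siRNA library, but NC 3 and SFRP2-siRNA 1 were less than 1 percentage point apart. The means were 25.1% ± 9.56 and 14.1% ± 2.41 (SD, n = 3 each), a difference of 11.1 percentage points, which was 5.71 without NC 1. As a share of the recovered reads the means were 12.2% ± 5.77 and 6.30% ± 0.94. In bulk tissue, fewer cells rich in mitochondria and less mitochondrial RNA per cell cannot be told apart.

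**Figure D1:**
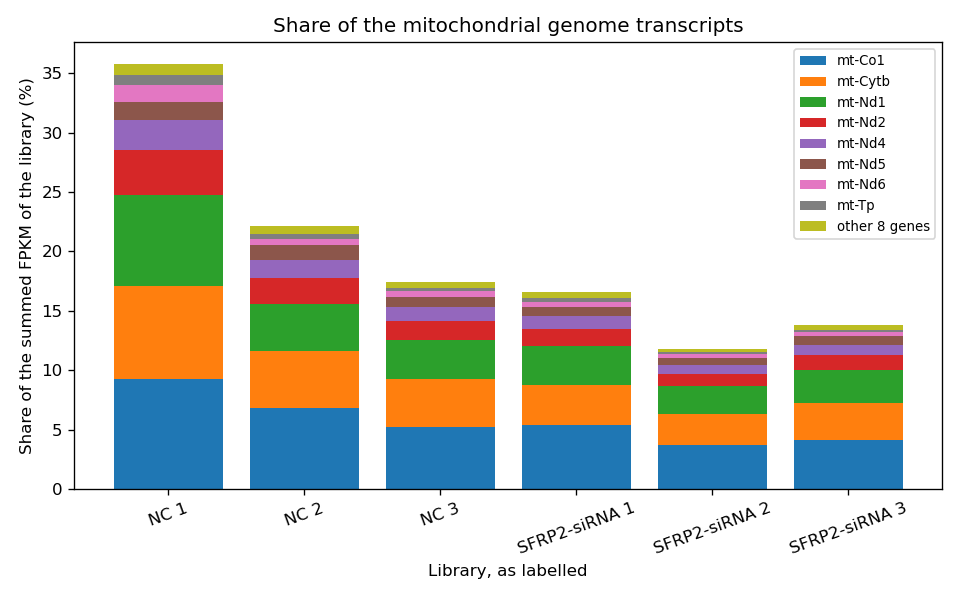
Stacked bars give the share (%) of each library's summed FPKM taken by the 16 mitochondrial genome transcripts, one bar per library, coloured by gene. The bar of NC 1 reaches 35.8%, the other NC bars 22.2% and 17.4%, and the bars labelled SFRP2-siRNA lie between 11.8% and 16.6%, with mt-Co1, mt-Cytb and mt-Nd1 as the tallest blocks in each.

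The abundant transcripts kept similar proportions, while some low ones did not. mt-Co1, mt-Cytb and mt-Nd1 together held 69.0% to 73.6% of the summed FPKM of the 16 in every library, and mt-Co1 alone 25.7% to 32.2%. The ribosomal RNAs held 1.34% to 1.98%, and the 6 protein-coding genes between mt-Co1 and mt-Nd4 held 1.02% to 1.52%. Among these 6, mt-Nd4l ran from 0.036% to 0.291% of the summed FPKM of the 16 and mt-Atp6 from 0.162% to 0.405%. mt-Nd6 is the 1 protein-coding gene on the minus strand. Its level over that of mt-Cytb was 0.182 in NC 1 and 0.116 to 0.135 in the other 5 libraries. Because mRNA was selected by the kit, the share of the ribosomal RNAs may not give their amount in the tissue.

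Per length, the order of the mean FPKM over the 6 libraries was mt-Co1, mt-Cytb, mt-Nd1, mt-Nd2, mt-Nd4, mt-Nd5, mt-Nd6, mt-Tp, mt-Rnr1, mt-Rnr2, mt-Co2, mt-Atp6, mt-Co3, mt-Nd4l, mt-Atp8 and mt-Nd3. It ran from 22138 FPKM for mt-Co1 to 13.5 FPKM for mt-Nd3. Neighbours in this order kept it in 6 of 6 libraries with 3 exceptions. mt-Rnr2 was above mt-Co2 in 5 libraries, mt-Atp6 above mt-Co3 in 4 and mt-Nd4l above mt-Atp8 in 4, so these pairs were not separated beyond the spread between libraries. The places of mt-Tp, mt-Rnr1 and mt-Rnr2 may also depend on the selection of mRNA, which was not tested.

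**Figure D2:**
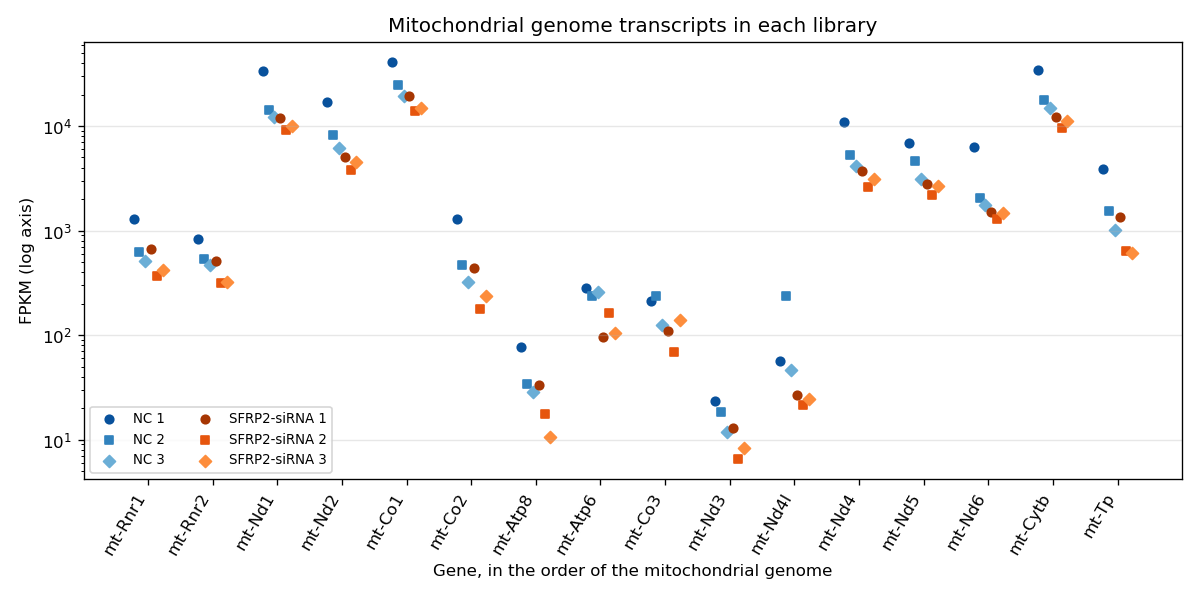
Points give the FPKM (log axis) of each transcript in each library, with genes in their order on the mitochondrial genome, NC libraries in blue and libraries labelled SFRP2-siRNA in orange. NC 1 is the highest point for 14 of the 16 genes, and the genes from mt-Co2 to mt-Nd4l lie below the other protein-coding genes.

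Level went with position on the genome. The 6 protein-coding genes between mt-Co1 and mt-Nd4, namely mt-Co2, mt-Atp8, mt-Atp6, mt-Co3, mt-Nd3 and mt-Nd4l, were the 6 lowest of the 16, with means of 13.5 to 489 FPKM. The other 7 protein-coding genes had means of 2392 to 22138 FPKM. This grouping was made after the values were seen, so it is given with no test. The same 6 genes lie inside the region matched by the copies on chromosome 1. For mt-Co2, mt-Atp6, mt-Co3, mt-Nd3 and mt-Nd4l, 97.6% to 99.9% of all windows of 100 bases were found unchanged in an annotated nuclear transcript. mt-Atp8 had none. Its first part lies in a gap of 233 bases between 2 of the annotated copies, a gap of the same length on both chromosomes. The chromosome 1 sequence in that gap was not read here. The last 43 bases of mt-Atp8, shared with mt-Atp6, lie in the stretch matched by Gm10925 but are shorter than 1 window.

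At the edges of the region the match was partial. For mt-Nd4, 60.8% of windows had an identical nuclear copy (876 of its 1378 bases match Gm28439), and for mt-Co1, 30.8%. For mt-Nd2 the share was 3.19%, and it was 0% for mt-Nd1, mt-Nd5, mt-Nd6, mt-Cytb and both ribosomal RNAs. mt-Tp is shorter than 1 window. The fate of reads that match in 2 places is not given in the sources used here, and its part in the low values was not tested.

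**Figure D3:**
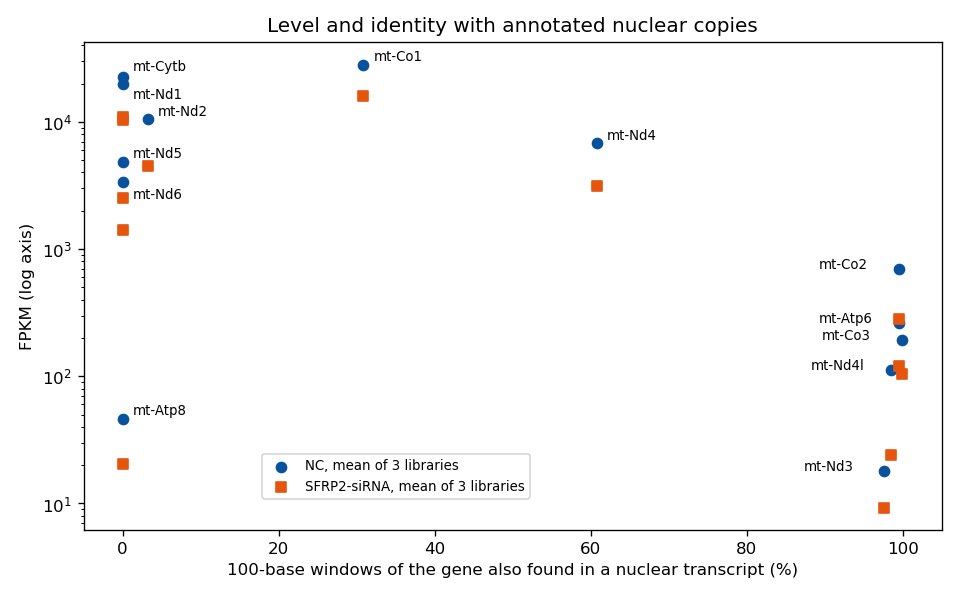
Each of the 13 protein-coding genes is plotted by the share (%) of its windows of 100 bases found unchanged in an annotated nuclear transcript and by its mean FPKM in NC (circles) and SFRP2-siRNA (squares, log axis). The 5 genes at 97.6% to 99.9% and mt-Atp8 at 0% are the lowest, with means over all libraries of at most 489 FPKM, and mt-Co1 and mt-Nd4, with partial copies, lie among the other 7 genes.

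All 7 copies have rows of their own, and the values of some of them follow. Gm28661, the copy of mt-Co2, had 355, 141 and 127 FPKM in NC 1, 2 and 3 and 92.6, 68.9 and 81.9 in SFRP2-siRNA 1, 2 and 3. Gm10925, the copy of mt-Atp6, had 408, 205 and 192 FPKM in NC and 141, 113 and 130 in SFRP2-siRNA. In both, the lowest NC library was above the highest SFRP2-siRNA library, as in 3.92% of all genes tested. The same held for Gm28437, Gm10222 and Gm28439, while Gm29216 and Gm28438 overlapped between the groups. Single libraries jumped in some of these rows: mt-Nd4l had 234 FPKM in NC 2 against 56.7 and 46.1 in NC 1 and NC 3, and Gm28437, the copy of mt-Co3, had 320 FPKM in NC 3 against 104 and 52.0 in NC 1 and NC 2. The log2 fold changes of the 7 copies were -0.61 to -1.68. As these rows share sequence with the mitochondrial genes, values of both are uncertain.

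All 16 transcripts were lower in the libraries labelled SFRP2-siRNA than in NC, and none passed the test across the table. The log2 fold changes, on the log2(FPKM + 1) scale, ran from -0.66 for mt-Rnr1 to -1.79 for mt-Nd4l, with limma adjusted p of 0.518 to 0.583. The study's call, an adjusted p under 0.05 with an absolute log2 fold change above 1, was met by 0% of the 16005 genes tested in limma, and voom on the recovered reads also called none. At an unadjusted limma p under 0.05, 2.86% of all genes tested were lower (458) and 6.72% higher (1075), and 4 of the 13 protein-coding transcripts were lower (mt-Atp6, mt-Co3, mt-Nd3 and mt-Nd4l). All 4 lie in the stretch with nuclear copies, but this depended on the fit. With no intensity trend in limma the count was 9. It then included mt-Nd2, mt-Co1, mt-Nd4, mt-Nd5 and mt-Cytb, which lie outside that stretch or only partly in it. With the trend kept, the count of 4 became 2 without NC 1, 2 without NC 2, 9 without NC 3 and 2 without SFRP2-siRNA 2.

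Groups were apart for 9 of the 13 protein-coding transcripts, each time with NC higher, where 3.92% of all genes tested did so in this direction. The 9 were mt-Nd1, mt-Nd2, mt-Co1, mt-Atp6, mt-Nd4l, mt-Nd4, mt-Nd5, mt-Nd6 and mt-Cytb. The count was 12 without SFRP2-siRNA 1, the library that stood apart, beside 7.97% of all genes, and 9 without NC 1, beside 7.34% of all genes. The median log2 fold change of the 13 was -1.0, beside 0.13 for all genes tested, and -0.59 without NC 1. NC 1 was the highest library for 14 of the 16, at a median of 2.20 times the mean of NC 2 and NC 3. Within SFRP2-siRNA, library 1 was the highest for 14 and library 2 was the lowest of all 6 for 13. The spread was wider in NC for 13 of the 16, with a median coefficient of variation of 52.7% against 22.7%.

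**Figure D4:**
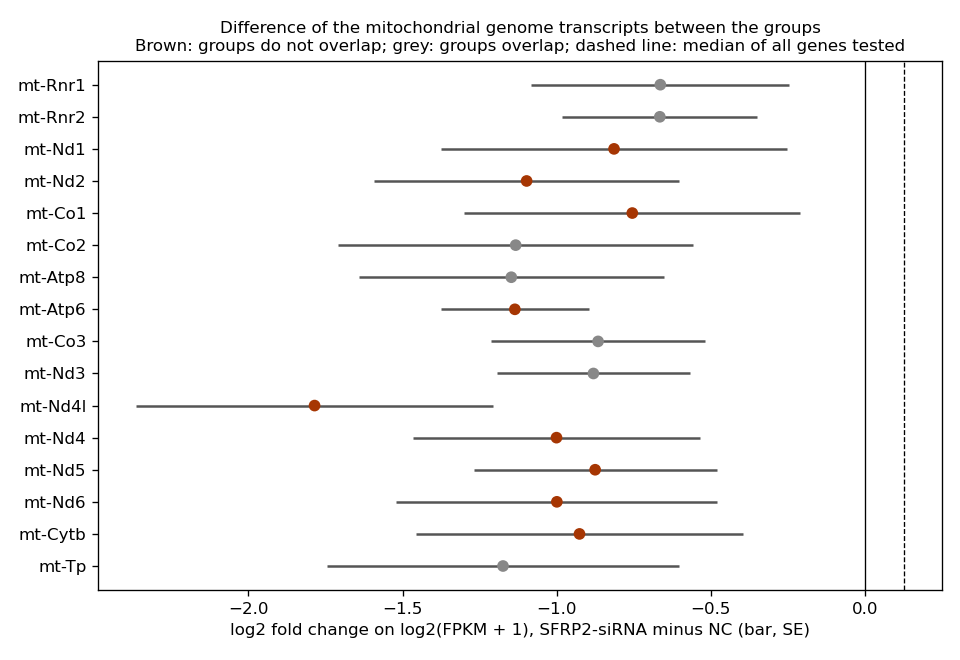
Points give the log2 fold change, SFRP2-siRNA minus NC on log2(FPKM + 1), of each of the 16 transcripts in genome order, with bars of 1 SE. All 16 lie left of 0 and of the dashed median of all genes tested (0.13), and the 9 brown points mark genes whose groups do not overlap.

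Complex I takes electrons from NADH, and 7 of its core subunits are encoded here. mt-Nd1 had 33809, 14113 and 12125 FPKM in NC 1, 2 and 3 and 11825, 9064 and 9931 in SFRP2-siRNA 1, 2 and 3. NC 3 and SFRP2-siRNA 1 nearly met, and the log2 fold change was -0.81 (SE 0.56, limma adjusted p = 0.573). mt-Nd2 had 17000, 8169 and 6150 FPKM in NC and 5100, 3815 and 4478 in SFRP2-siRNA. It was lower in every treated library, at -1.10 on the log2 scale (SE 0.49, limma adjusted p = 0.520).

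mt-Nd4 had 10935, 5280 and 4152 FPKM in NC and 3691, 2621 and 3092 in SFRP2-siRNA, a log2 fold change of -1.0 (SE 0.46). mt-Nd5 had 6819, 4587 and 3146 FPKM in NC and 2760, 2187 and 2640 in SFRP2-siRNA, a log2 fold change of -0.88 (SE 0.39). In both the groups did not overlap, and NC 1 carried much of the difference. mt-Nd6, on the minus strand, had 6312, 2047 and 1745 FPKM in NC and 1488, 1281 and 1478 in SFRP2-siRNA. Its treated libraries were close together and NC 1 was far above the rest (log2 fold change -1.0, SE 0.52).

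The small complex I genes mt-Nd3 and mt-Nd4l were lowly counted, with as few as 102 and 287 reads in a library. mt-Nd3 had 23.4, 18.4 and 11.7 FPKM in NC and 12.9, 6.47 and 8.29 in SFRP2-siRNA. NC 3 was below SFRP2-siRNA 1, so the groups overlapped, with a log2 fold change of -0.88 (SE 0.31, unadjusted limma p = 0.027, exact permutation p = 0.2). mt-Nd4l had 56.7, 234 and 46.1 FPKM in NC and 26.5, 21.3 and 24.4 in SFRP2-siRNA. Its log2 fold change, -1.79 (SE 0.58), was the most negative of the 16, with NC 2 far above the other libraries. This rank rested on NC 2: without it the log2 fold change was -1.06, less negative than that of mt-Atp8 (-1.30) in the same fit.

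Cytochrome b, from mt-Cytb, is the subunit of complex III encoded in mitochondria, where electrons pass from ubiquinol to cytochrome c. mt-Cytb had 34662, 17644 and 14720 FPKM in NC 1, 2 and 3 and 12276, 9522 and 11226 in SFRP2-siRNA 1, 2 and 3. The groups did not overlap, at 22342 ± 10769 FPKM in NC and 11008 ± 1390 FPKM in SFRP2-siRNA (SD, n = 3 each). A two-sided exact permutation test gave p = 0.1, which is as low as it can go with 3 libraries a group. The limma log2 fold change was -0.93 (SE 0.53, adjusted p = 0.542).

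Complex IV, cytochrome c oxidase, reduces oxygen to water, and mt-Co1, mt-Co2 and mt-Co3 encode its catalytic core. mt-Co1 had 40724, 24633 and 19293 FPKM in NC and 19180, 14011 and 14987 in SFRP2-siRNA. NC 3 exceeded SFRP2-siRNA 1 by less than 1% of its value, and the log2 fold change was -0.75 (SE 0.55, limma adjusted p = 0.583). mt-Co2 had 1295, 465 and 322 FPKM in NC and 439, 177 and 235 in SFRP2-siRNA, and NC 3 was below SFRP2-siRNA 1. mt-Co3 had 213, 237 and 125 FPKM in NC and 108, 68.5 and 138 in SFRP2-siRNA, again with overlap. Their log2 fold changes were -1.13 (SE 0.58) and -0.87 (SE 0.35).

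ATP synthase uses the proton gradient to make ATP, and mt-Atp6 and mt-Atp8 encode parts of its membrane domain. mt-Atp6 had 283, 238 and 260 FPKM in NC and 96.7, 162 and 104 in SFRP2-siRNA. It differed from the other transcripts in that the NC libraries were close together, with means of 260 ± 22.9 and 121 ± 35.8 FPKM (SD, n = 3 each). Its unadjusted limma p of 0.0023 was the smallest of the 16, with a log2 fold change of -1.14 (SE 0.24) and an adjusted p of 0.518. However, 99.5% of its windows of 100 bases recur in a nuclear transcript. Its copy Gm10925 had 408, 205 and 192 FPKM in NC 1, 2 and 3, with NC 1 far above the others. How reads were divided between these 2 rows is not known, and its part in the values of mt-Atp6 was not tested. mt-Atp8 had 76.8, 33.8 and 28.5 FPKM in NC and 33.0, 17.7 and 10.5 in SFRP2-siRNA, where the groups overlapped (log2 fold change -1.15, SE 0.49).

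The RNAs that are not translated overlapped between the groups. mt-Rnr1, the small ribosomal RNA, had 1289, 626 and 512 FPKM in NC 1, 2 and 3 and 672, 369 and 419 in SFRP2-siRNA 1, 2 and 3. mt-Rnr2, the large ribosomal RNA, had 831, 534 and 467 FPKM in NC and 507, 318 and 322 in SFRP2-siRNA. SFRP2-siRNA 1 was above NC 3 in both, and their log2 fold changes were -0.66 (SE 0.42) and -0.67 (SE 0.32). mt-Tp, the proline transfer RNA, had 3888, 1544 and 1014 FPKM in NC and 1341, 643 and 613 in SFRP2-siRNA. It is 67 bases long, so each read adds much to its FPKM, and the log2 fold change was -1.17 (SE 0.57). It lies on the minus strand and the strand setting is not known, so reads from the opposite strand may have been counted. Whether its reads came from the released transfer RNA or from longer precursors was not tested. The kit selected mRNA, and 3 of 12 listed nuclear RNAs without poly(A) tails had rows, which summed to 0 to 1.31 FPKM per library.

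The nuclear genes that transcribe and copy the mitochondrial genome were near 0 on the log2 fold change scale. Of 17 tested, 8 were lower and 9 higher, none had an unadjusted p under 0.05, 2 had groups that did not overlap with NC higher (3.92% of all genes), and the median log2 fold change was 0.03. Tfam, which packages mitochondrial DNA and starts its transcription, had 4.66, 5.57 and 6.93 FPKM in NC and 6.02, 5.63 and 7.05 in SFRP2-siRNA, a log2 fold change of 0.11 (SE 0.16). Polrmt, the mitochondrial RNA polymerase, had 7.70, 7.05 and 8.65 FPKM in NC and 6.51, 6.41 and 8.45 in SFRP2-siRNA, a log2 fold change of -0.12 (SE 0.15). Both overlapped between the groups. The 3 genes with the smallest p were Tfb2m, a transcription factor of mitochondria (-0.19), Polg2, a subunit of the mitochondrial DNA polymerase (0.18), and Mterf2 (-0.19), where the values are log2 fold changes.

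Genes for the processing and stability of mitochondrial RNA had a median log2 fold change of -0.04, with 16 of 25 lower and 1 of 25 lower at an unadjusted p under 0.05, a share near the 2.86% of all genes. That gene, Lrpprc, stabilises mitochondrial mRNAs. It had 9.67, 9.23 and 9.05 FPKM in NC and 7.64, 7.02 and 7.76 in SFRP2-siRNA, with groups apart and a log2 fold change of -0.28 (SE 0.11, unadjusted limma p = 0.039, exact permutation p = 0.1). Next by p were Angel2 and Ptcd3, with log2 fold changes of 0.22 and -0.21. Of the 25, 5 did not overlap with NC higher, beside 3.92% of all genes, and 1 with NC lower, beside 13.9%. The mitochondrial aminoacyl-tRNA synthetases and related genes had a median of -0.02, with 13 of 22 lower and 2 of 22 lower at an unadjusted p under 0.05 beside 2.86% of all genes, Fars2 (-0.42) and Gatb (-0.34). Iars2, the third gene by p, had a log2 fold change of -0.19. Of the 22, 3 did not overlap with NC higher, beside 3.92% of all genes, and 1 with NC lower, beside 13.9%.

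Regulators of mitochondrial biogenesis had a median log2 fold change of -0.11, with 3 of 14 lower at an unadjusted p under 0.05, beside 2.86% of all genes. Ppara, a nuclear receptor for fatty acid oxidation, had 2.80, 3.64 and 1.94 FPKM in NC and 1.91, 0.94 and 1.00 in SFRP2-siRNA (log2 fold change -0.73, SE 0.23). Ppargc1b, a coactivator, was at -0.44 (SE 0.14) and Sirt3, a mitochondrial deacetylase, at -0.50 (SE 0.18). Ppargc1a, the coactivator induced in brown fat by cold, had 1.73, 2.02 and 1.46 FPKM in NC and 0.79, 1.10 and 1.52 in SFRP2-siRNA, with overlap (log2 fold change -0.37, SE 0.16). All 4 of these genes were expressed at low levels. Of the 14 regulators tested, 4 had groups that did not overlap with NC higher, beside 3.92% of all genes.

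The nuclear partners of the mitochondrially encoded subunits were also mostly lower, with medians closer to 0 than that of the mitochondrial transcripts. Of 36 nuclear complex I genes, 35 were lower, 8 with an unadjusted p under 0.05 and 16 with groups that did not overlap, and the median log2 fold change was -0.46. Over all genes tested the shares were 2.86% lower at that p and 3.92% not overlapping with NC higher, which also hold beside the next counts. In complex III, 9 of 9 were lower and 9 did not overlap (median -0.62), and in complex IV, 15 of 15 were lower and 9 did not overlap (median -0.48). For complex V, 11 of 15 were lower, 4 did not overlap and the median was -0.17. Complex II, which has no subunit encoded in mitochondria, had 4 of 4 lower and not overlapping (median -0.63). The median of the 13 mitochondrial protein-coding genes was -1.0, and no test compared these lists.

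The genes with the smallest p in these complexes follow. Uqcrc2 of complex III had 123, 102 and 98.1 FPKM in NC and 69.7, 62.1 and 67.9 in SFRP2-siRNA (log2 fold change -0.68, SE 0.16). Sdha, the flavoprotein of complex II, had 189, 170 and 133 FPKM in NC and 102, 85.8 and 84.9 in SFRP2-siRNA (log2 fold change -0.84, SE 0.19). In both, NC 1 was closer to NC 2 than for most mitochondrial transcripts. In complex I, Ndufs1, Ndufa10 and Ndufa9 had log2 fold changes of -0.61, -0.86 and -0.57, and in complex III, Cyc1 and Uqcrc1 had -0.69 and -0.79. Sdhb and Sdhd of complex II had -0.76 and -0.49, Cox5a of complex IV had -0.48, and Atp5b, Atp5a1 and Atp5j2 of complex V had -0.65, -0.53 and -0.52. The adjusted limma p ran from 0.518 to 0.520 over all of them.

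Cox8b and Cox7a1, forms of complex IV subunits typical of muscle and brown fat, had larger differences. Cox8b had 359, 156 and 119 FPKM in NC and 83.3, 53.4 and 62.4 in SFRP2-siRNA (log2 fold change -1.51, SE 0.42). Cox7a1 had 206, 65.7 and 59.4 FPKM in NC and 34.4, 28.8 and 34.4 in SFRP2-siRNA (log2 fold change -1.49, SE 0.46). In both, NC 1 was the highest library and SFRP2-siRNA 2 the lowest, as in most mitochondrial transcripts.

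Other mitochondrial membrane and matrix genes gave a mixed picture, with 13 of 19 lower, 3 of 19 lower at an unadjusted p under 0.05 (2.86% of all genes) and a median log2 fold change of -0.14. Cs, citrate synthase of the matrix, had 178, 134 and 122 FPKM in NC and 90.5, 77.7 and 82.4 in SFRP2-siRNA (log2 fold change -0.77, SE 0.19). Vdac1, the main channel of the outer membrane, had 92.1, 101 and 115 FPKM in NC and 102, 104 and 129 in SFRP2-siRNA (log2 fold change 0.11, SE 0.18). These 2 genes, both often used as a measure of mitochondrial content, thus had differences of opposite sign. Immt and Opa1, which shape the inner membrane, had log2 fold changes of -0.52 and -0.30. Of the 19 genes, 6 had groups that did not overlap with NC higher, beside 3.92% of all genes.

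Markers of other cell types also differed between the libraries. The 7 brown adipocyte markers summed to 2166, 1208 and 750 FPKM in NC 1, 2 and 3 and 480, 227 and 208 in SFRP2-siRNA 1, 2 and 3, with 7 of 7 lower, 4 of 7 lower without overlap, beside 3.92% of all genes, and none at 0. Ucp1, the uncoupling protein that defines brown fat, had 1061, 615 and 314 FPKM in NC and 157, 39.9 and 19.1 in SFRP2-siRNA, and Cidea had 482, 311 and 180 in NC and 132, 50.7 and 37.3 in SFRP2-siRNA. In this sum and in both genes NC 1 was highest, then NC 2, NC 3 and SFRP2-siRNA 1. Of the 16 mitochondrial transcripts, 7 shared the order this far. The lowest library differed: it was SFRP2-siRNA 3 in the sum, in Ucp1 and in Cidea, and SFRP2-siRNA 2 in those 7 transcripts. Ucp1 and Cidea had the highest values of the list in NC, and other members differed from them. Elovl3 had 53.4, 55.6 and 73.9 FPKM in NC and 70.7, 52.0 and 52.1 in SFRP2-siRNA. Dio2 and Ppargc1a also overlapped between the groups. Cox7a1, Cox8b and Ppargc1a belong to this list and to lists above. The part of this cell type in the mitochondrial values was not tested.

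The sum of the skeletal muscle markers did not follow this order. These 15 markers summed to 4027, 5698 and 7790 FPKM in NC and 5075, 7913 and 14419 in SFRP2-siRNA, lowest in NC 1. Single markers could differ from the sum. The 11 general adipocyte markers summed to 2831, 2177 and 2462 FPKM in NC and 2926, 1584 and 1127 in SFRP2-siRNA, with overlap. The 11 macrophage markers summed to 987, 1715 and 1148 FPKM in NC and 2474, 1957 and 1931 in SFRP2-siRNA. Of these, 9 of 11 were higher at an unadjusted p under 0.05, beside the 6.72% of all genes, and 5 of 11 were higher without overlap, beside 13.9% of all genes. The 10 fibroblast markers summed to 951, 2134 and 1089 FPKM in NC and 2387, 2406 and 2326 in SFRP2-siRNA, with 7 of 10 higher without overlap, beside 13.9% of all genes. Keratinocyte markers, which a skin wound contains, were present in every library at 3747 to 7057 FPKM in sum. The part of these cell types in the mitochondrial values was not tested.

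**Figure D5:**
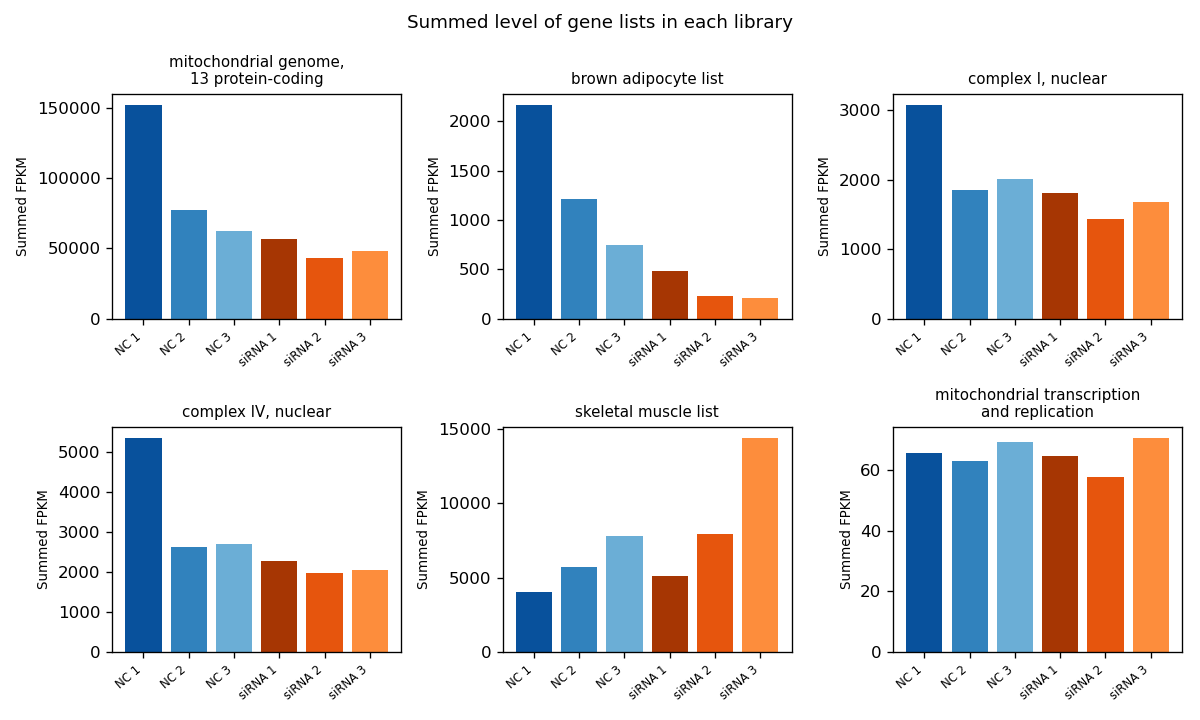
Bars give the summed FPKM of 6 gene lists in each library, NC in blue and SFRP2-siRNA in orange, each panel with its own axis from 0. The mitochondrial protein-coding genes, brown adipocyte markers and nuclear complexes I and IV are highest in NC 1, skeletal muscle markers are highest in SFRP2-siRNA 3, and genes for mitochondrial transcription and replication lie between 57.6 and 70.6 FPKM in all 6 libraries.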

How the data were processed

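Paired-end mRNA-seq (TRIzol RNA, ABclonal kit) of 6 wound libraries was examined. The authors deposited FPKM values per Ensembl gene. The submitters' processing notes name HISAT2, featureCounts and Subread; versions, genome build, annotation, strand setting and treatment of reads with several matches are not given in the sources used here. The members and lists were chosen with earlier results of these data known. Of the IDs, 32582 matched a symbol and 602 did not. Reads were recovered from the FPKM steps with GENCODE vM21 lengths (98.3% of genes with a length gave whole reads in all libraries, within 0.02 reads where counts are low). All rows were fitted together: log2(FPKM + 1), mean of at least 0.5 FPKM, two-sided limma 3.58.1 under R 4.3.3, with lmFit and a trended eBayes, and Benjamini-Hochberg adjustment over 16005 genes. The study's own test needs counts and was not run. For single genes an exact permutation test (two-sided) was added. Scripts were tested on simulated data. Each member was aligned with blastn 2.17.0 to the non-mitochondrial transcripts of vM21, and every window of 100 bases was searched in the transcripts hit. Named genes were all 13 protein-coding and both ribosomal RNA genes, the transfer RNA with a row, up to 3 genes by smallest p in each nuclear list, and Tfam, Polrmt, Ppargc1a, Lrpprc and Vdac1. Cell type lists are given as sums, with some single brown adipocyte markers named beside theirs. The alternatives tried were no filter, a pseudocount of 0.1, a mean of at least 2 FPKM, 3 scalings, no trend, a replicate block, sample weights, each library left out and, added after the data were seen, voom on recovered reads.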

Additional observations from a re-analysis of the deposited data

How the results depend on the processing

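All 272 refits of the 16 transcripts, under 17 alternatives, kept a negative log2 fold change and none passed the adjusted threshold (smallest adjusted p of a member 0.202, of any gene 0.119). The count of protein-coding transcripts lower at an unadjusted p under 0.05, 4 in the reported fit, was 9 with no intensity trend, 9 with estimated sample weights, 8 with voom on recovered reads and 8 with voom and median-of-ratios library sizes, both chosen after seeing the data. It was 3 with no filter and 6 with a mean of at least 2 FPKM. Leaving out 1 library gave 2 to 9. The cause was not tested. The SE of abundant transcripts also changed with the fit. For mt-Co1 it was 0.55 in the reported fit, 0.29 with no intensity trend and 3.29 with no filter. For mt-Cytb the same fits gave 0.53, 0.32 and 2.59. Whether the replicate numbers pair the samples is not known. Correlations of deviations from the group means were -0.05, -0.15 and 0.38 for numbers 1, 2 and 3, too few to decide it. The replicate block gave a count of 8. The median log2 fold change of the 13, -1.0 in the reported fit and with the replicate block, was -0.59 to -1.18 when 1 library was left out and -0.90, -1.16 and -1.11 with equal sums, median of ratios and equal sums without the members, which put the median of all genes at 0.20, 0.00 and 0.04. Those 3 scalings gave 7, 9 and 8 protein-coding transcripts without overlap, beside 2.80%, 7.87% and 5.90% of all genes, and leaving out 1 library 9 to 13, beside 5.52% to 7.97% of all genes. The difference in share was 5.71 to 14.9 percentage points when 1 library was left out. Depth limits the low transcripts most: mt-Nd3 and mt-Atp8 had as few as 102 and 101 reads in a library, against at least 30115 for the 7 abundant protein-coding transcripts.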
